A study of Mus musculus with 60 samples.

Results

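Among 60 mouse brain libraries, 30 were striatum-like, which here means that the deposited level of Slc17a7, the vesicular glutamate transporter of cortical excitatory neurons, was at most 100 FPKM (fragments mapped to a gene, relative to its length and to the library's mapped fragments). These 30 libraries were ranked by Ttr, the transcript of transthyretin, after the FPKM of each library had been divided by its median-of-ratios factor, and the 8 libraries with the highest Ttr were set against the 8 with the lowest. The 16 libraries were thus chosen by a measured value, and every difference between the 8 and the 8 is given as a description with no test. The highest Slc17a7 among the 30 was 64.8 FPKM and the lowest among the other 30 libraries was 121 FPKM. At the other limits, Ttr was 1185 in the last library of the high-Ttr group and 1174 in the next one below it, and 386 in the last library of the low-Ttr group and 569 in the next one above it, so the upper limit fell between near ties.

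RNA-Seq of total RNA was made from cortex and striatum of c57BL-6N mice aged 3 months, in 10 labelled groups of 3 males and 3 females. The Δ12 line carries an Htt allele, made by genome editing of embryonic stem cells, that lacks a part of exon 12 and has a new splice donor. The KO line goes back to 1 founder of the same editing, whose Htt allele lost the usual splice donor of that exon, and its mice carry at most 1 such allele. The 30 striatum-like libraries were labelled +/+ of the KO line (12 libraries), KO/+ of the KO line (12) and Δ12/Δ12 of the Δ12 line (6, all labelled female), with 15 labelled striatum and 15 labelled cortex. No library labelled Δ12/+ or +/+ of the Δ12 line was among them.

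The epithelium of the choroid plexus, which floats in the ventricles next to the striatum, secretes the cerebrospinal fluid. It makes transthyretin, a carrier of thyroid hormone and of the retinol-binding protein, in such amounts that Ttr is the usual transcript by which choroid plexus is recognised in brain RNA. The ventricle wall itself is lined by ependymal cells, whose motile cilia move the fluid, and beneath it lies the subventricular zone with its neuroblasts.

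The labels of these libraries did not agree throughout with their transcripts. In the high-Ttr group, 6 libraries were labelled cortex and 2 striatum, and in the low-Ttr group 5 were labelled cortex and 3 striatum, although all 16 were striatum-like. The 14 listed markers of striatal projection neurons summed to 1487 to 2130 scaled FPKM in the high-Ttr and 1578 to 2780 in the low-Ttr group, against 148 to 950 in the other 30 libraries, which were scaled apart. The transcripts of Xist and Ddx3y went with the labelled sex in 7 of the 8 high-Ttr and in 2 of the 8 low-Ttr libraries, and in 17 of the 30. Xist was above Ddx3y in 5 of the 8 high-Ttr and 2 of the 8 low-Ttr libraries, and the part of sex in the differences below was not tested. Libraries are therefore named by their labels only. The estimated depth was 17800000 to 21200000 fragments in the high-Ttr and 16400000 to 20700000 in the low-Ttr group. Htt, the edited gene, was at 12.2 to 17.5 scaled FPKM in the high-Ttr and 12.1 to 18.3 in the low-Ttr group. The correlation of log levels between 2 striatum-like libraries was at most 0.952, so no library was a copy of another.

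Scaled Ttr was highest, at 1777, in the library labelled cortex KO/+ female 3. It was 1669, 1495 and 1320 in those labelled cortex Δ12/Δ12 female 2, 3 and 1, and 1421 in that labelled striatum +/+ female 3 of the KO line. It was 1352 and 1213 in those labelled cortex KO/+ female 1 and male 1, and 1185 in that labelled striatum KO/+ male 2. At the other end were the library labelled striatum Δ12/Δ12 female 3 at 26.1 and that labelled cortex KO-line +/+ female 2 at 35.9, which stood apart from the rest of the low-Ttr group. The other 6 low-Ttr libraries were at 154 (cortex KO/+ female 2), 248, 260 and 386 (cortex KO-line +/+ female 3, female 1 and male 1), 283 (striatum KO/+ male 3) and 298.5 (striatum KO-line +/+ female 2). The mean was 1429 ± 210 (SD, n = 8) in the high-Ttr and 211 ± 128 (SD, n = 8) in the low-Ttr group, a ratio of 6.76, and the highest library had 68.2 times the Ttr of the lowest. The 14 libraries between the groups ran from 569 to 1174, and the other 30 libraries of the series from 1.53 to 425, scaled apart, with a median of 7.42.

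**Figure D1:**
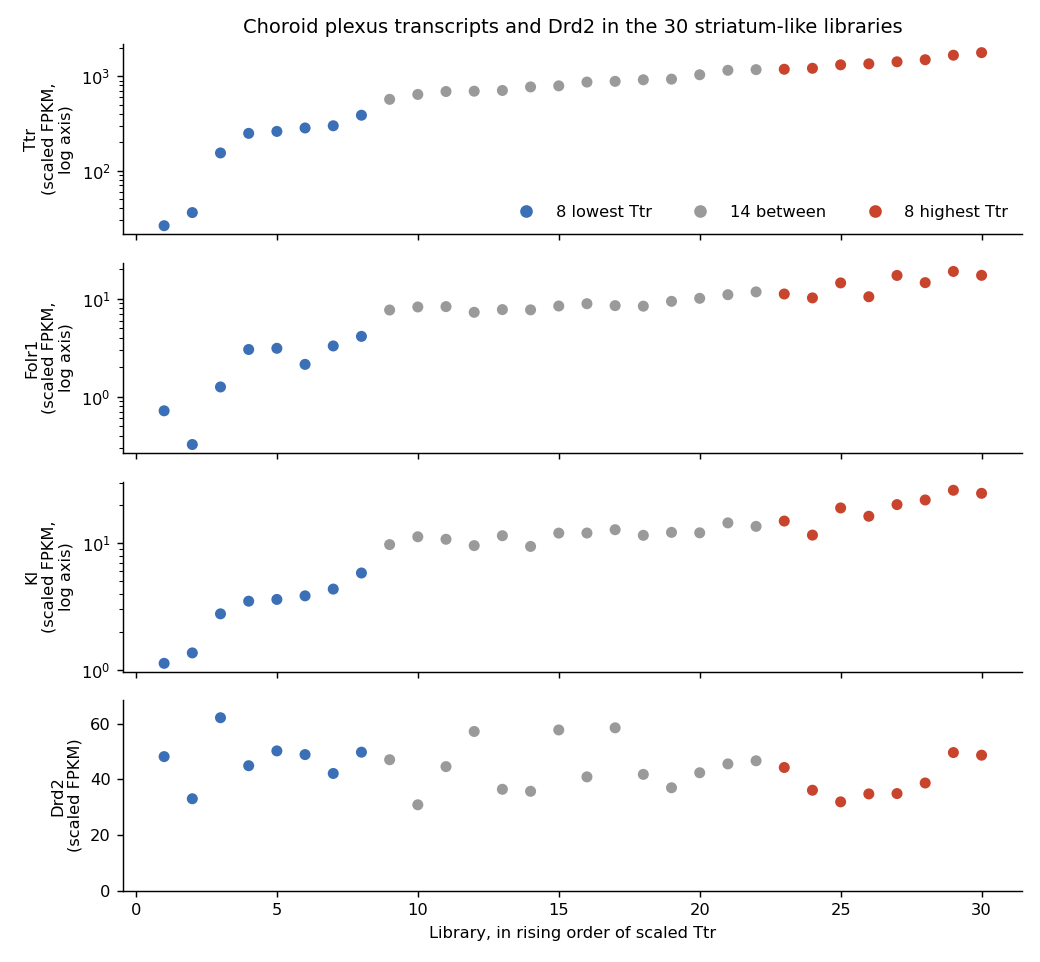
Scaled FPKM of Ttr, Folr1 and Kl (log axes) and of Drd2 (linear axis from 0) in the 30 striatum-like libraries, each point 1 library, placed in rising order of Ttr and coloured by group. Folr1 and Kl follow the order of Ttr, from 0.324 to 19.1 and from 1.12 to 26.3 scaled FPKM, while Drd2 lies between 31.9 and 49.7 in the high-Ttr and between 33.1 and 62.2 in the low-Ttr libraries.

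Of 15596 gene entries with a mean of at least 0.5 scaled FPKM over the 30 libraries, Ttr aside, 125 were higher in all 8 high-Ttr libraries than in all 8 low-Ttr libraries (0.801% of entries) and 12 were lower (0.0769%). In the listed genes of the choroid plexus epithelium, 28 of 30 described entries were among the 125. Among those that overlapped was Ace, which encodes the angiotensin-converting enzyme and was at 9.07 to 18.5 against 4.63 to 9.15 scaled FPKM. One further member, Lmx1a, stayed under the limit on the mean, with 0.715 as its highest value in the high-Ttr and 0.151 in the low-Ttr group. The median log2 difference of the list was 1.92, against -0.01 over all entries. As the limit was on the mean over the 30 libraries, an entry under it in the low-Ttr group could pass through the other libraries. This favours the count of higher entries. Log2 differences are of log2(scaled FPKM + 0.5), high-Ttr minus low-Ttr, and understate the change of low genes.

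**Figure D2:**
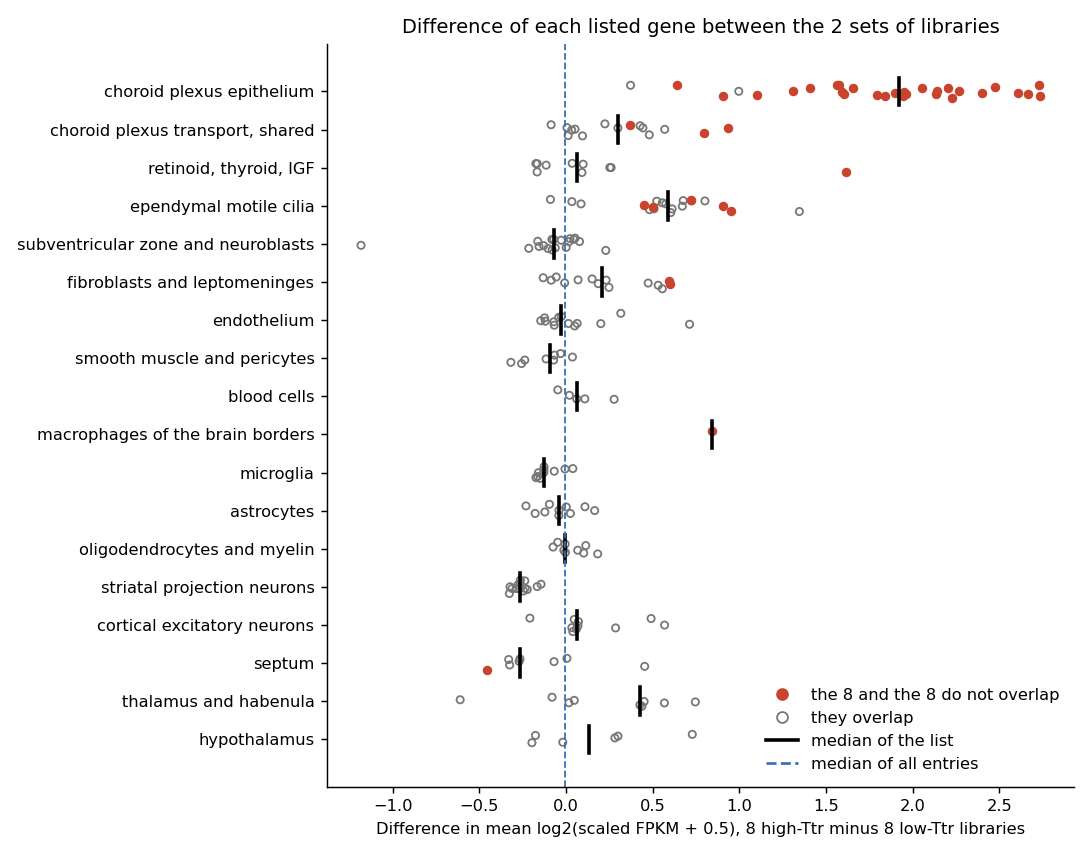
Log2 difference between the 8 high-Ttr and the 8 low-Ttr libraries for each described gene of 18 lists, filled where the 2 sets of libraries did not overlap, with the median of the list as a bar and that of all entries as a dashed line. The choroid plexus epithelium lies to the right, with a median of 1.92, the ependymal list has a median of 0.59, and the striatal projection neurons lie to the left at -0.26.

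Folr1 and Kl are the markers named for the choroid plexus here beside Ttr. Folr1 (ENSMUSG00000001827, GRCm38 chromosome 7, 101858331 to 101870788), the receptor that carries folate across the epithelium, was at 10.2 to 19.1 scaled FPKM with a median of 14.6 in the high-Ttr libraries and at 0.324 to 4.13 with a median of 2.59 in the low-Ttr libraries. Kl (ENSMUSG00000058488, chromosome 5, 150952607 to 150993817) encodes klotho, a membrane protein that the epithelium also sheds into the fluid, and was at 11.6 to 26.3 (median 19.7) against 1.12 to 5.83 (median 3.55). All 8 high-Ttr libraries were above all 8 low-Ttr libraries in both genes, with ratios of means of 6.38 and 5.90. The lowest Folr1 of all was in the library labelled cortex KO-line +/+ female 2 (0.324) and the lowest Kl in that labelled striatum Δ12/Δ12 female 3 (1.12), the same pair that had the lowest Ttr.

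Ion channels and transporters of the epithelium differed by similar ratios. Kcnj13 (ENSMUSG00000079436, chromosome 1, 87386363 to 87394729), an inwardly rectifying potassium channel of the apical membrane, was at 6.76 to 20.1 in the high-Ttr and 0.258 to 3.04 in the low-Ttr libraries. Its log2 difference of 2.74 was the largest among the entries whose groups did not overlap. Kcne2, a potassium channel subunit, was at 2.67 to 7.69 against 0.084 to 1.42. These values give a ratio of means of 7.85 for Kcnj13 and 7.74 for Kcne2. Aqp1, the water channel of the apical membrane, was at 3.40 to 6.20 against 0.0491 to 1.25, and Slc4a5, a sodium bicarbonate cotransporter, at 2.46 to 5.59 against 0.0855 to 1.27. Clic6, a chloride intracellular channel protein, had a smaller log2 difference of 1.65 (8.62 to 14.4 against 2.28 to 5.05). Trpv4, a cation channel that responds to osmotic change, was at 1.80 to 3.56 against 0.266 to 1.27.

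Receptors, secreted proteins and junction proteins of the epithelium were high in the same libraries. Prlr, the prolactin receptor, was at 6.35 to 18.3 scaled FPKM against 0.346 to 3.92. Enpp2, which encodes the secreted phospholipase autotaxin, had the highest level on the list, 206 to 404 (median 324) against 45.0 to 116 (median 85.7). Igfbp2, a binding protein of insulin-like growth factors, was at 14.3 to 27.4 against 2.29 to 7.62. Sostdc1, a secreted antagonist of BMP and Wnt signals, was at 4.16 to 9.07 against 0.232 to 1.92. F5, coagulation factor V, was at 2.61 to 6.36 against 0.163 to 1.53. Cldn2, a claudin of leaky tight junctions, was at 2.90 to 4.86 against 0.0627 to 0.967. Cldn1, the other claudin on the list, differed less, at 1.04 to 2.79 against 0.292 to 0.949.

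The transcription factor Otx2, needed for the choroid plexus to form, was at 2.53 to 4.41 scaled FPKM (median 3.80) in the high-Ttr and 0.0782 to 1.23 (median 0.699) in the low-Ttr libraries. Mfrp, a membrane protein with a frizzled-like domain, was at 4.97 to 11.6 against 0.143 to 3.07. The homeobox gene Msx1 was at 2.61 to 4.71 against 0.691 to 1.99. Since these genes moved together, the RefSeq promoters (GRCm38.p6, 250 bases before to 50 after a start) of 24 of the listed genes, 33 in all, were searched on both strands for TAATCC, the core bound by OTX factors. It was in 3 of the 33 promoters (9.09%), of Mfrp, Otx2 and Ace, and in 7.06% of all 32851 promoters. The promoters of Mfrp (chr9:44101520-44101819, plus strand) and of 1 of the starts of Otx2 (chr14:48665060-48665359, minus strand) are shown 5′ to 3′ as the match in 2 of these genes, with the motif or its reverse complement in capitals.
Mfrp: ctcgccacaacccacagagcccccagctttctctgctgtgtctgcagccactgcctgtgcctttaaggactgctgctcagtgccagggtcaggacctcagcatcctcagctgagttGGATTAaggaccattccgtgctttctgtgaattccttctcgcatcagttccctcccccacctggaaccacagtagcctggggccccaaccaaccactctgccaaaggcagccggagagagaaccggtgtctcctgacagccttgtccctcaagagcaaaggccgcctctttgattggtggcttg
Otx2: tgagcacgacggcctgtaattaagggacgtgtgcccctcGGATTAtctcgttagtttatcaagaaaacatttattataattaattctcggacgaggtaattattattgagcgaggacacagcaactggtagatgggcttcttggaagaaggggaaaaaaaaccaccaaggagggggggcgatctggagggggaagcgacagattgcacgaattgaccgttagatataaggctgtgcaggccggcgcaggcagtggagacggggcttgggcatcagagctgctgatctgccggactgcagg
A match describes these letters only.

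For some of the listed genes the level went up nearly in proportion to Ttr, and for most by less. Over the 30 libraries the slope of log level on log Ttr was 1.03 for Aqp1, 1.01 for Cldn2, 0.97 for Mfrp and 0.96 for Kcnj13, and it was at least 0.8 in 10 of the 29 listed entries that were above 0 in all libraries. The 2 libraries with the lowest Ttr, which stood apart, entered these slopes, and no slope was fitted without them. For each 1000 scaled FPKM of Ttr, the median library held 8.54 of Kcnj13 in the high-Ttr group and 7.62 in the low-Ttr group, and 3.46 against 3.54 of Aqp1. Enpp2, with a slope of 0.51, had 230 per 1000 of Ttr in the high-Ttr and 337 in the low-Ttr group, and Car12, a carbonic anhydrase, with a slope of 0.19, had 9.99 against 39.0. Genes with a shallow slope therefore kept more of their level where Ttr was low: Enpp2 was still at 45.0 where Ttr was 26.1. In the other 30 libraries, scaled apart, Enpp2 was at 29.7 to 119 (median 44.2), with a median Ttr of 7.42. Which cells gave the Enpp2 at low Ttr was not tested.

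**Figure D3:**
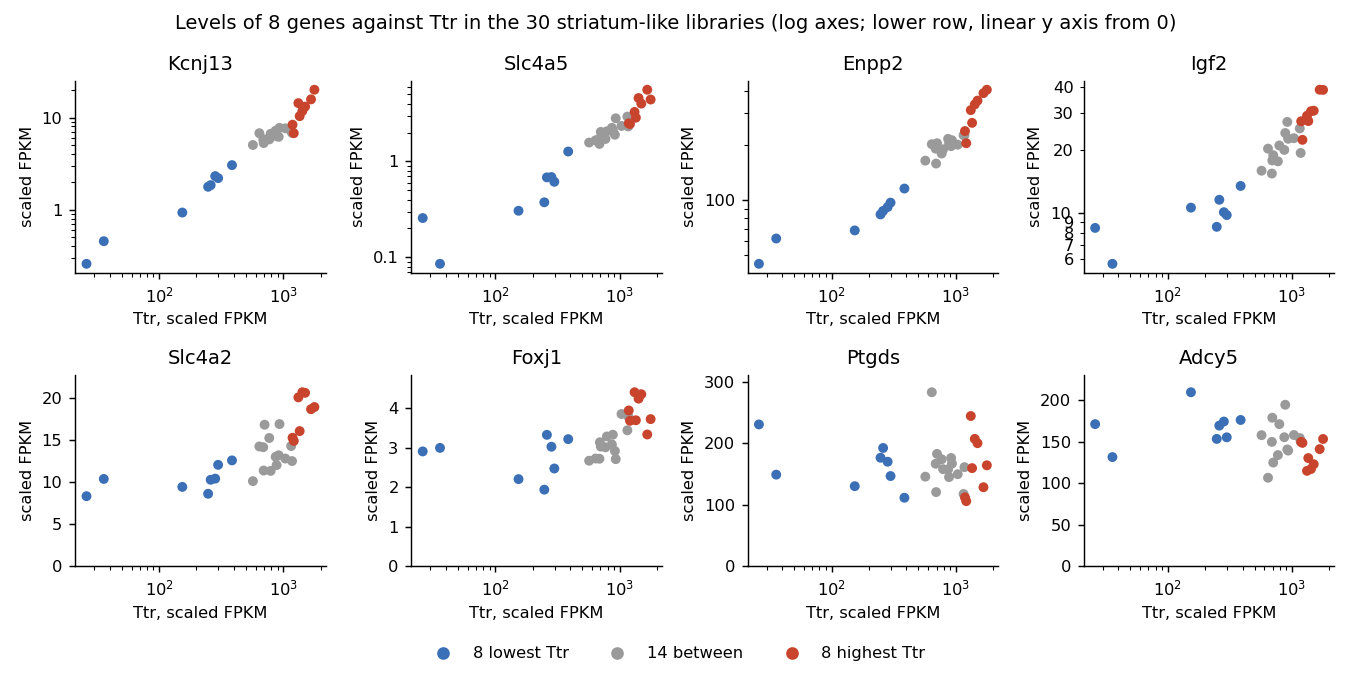
Scaled FPKM of 8 genes against scaled Ttr (log axis) in the 30 striatum-like libraries, coloured by group; the y axis is a log axis in the upper row and linear from 0 in the lower row. Kcnj13 and Slc4a5 climb with Ttr over the whole range, Enpp2 and Igf2 flatten at low Ttr, Slc4a2 and Foxj1 differ by less than 2 times between the means, and Ptgds and Adcy5 do not climb.

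The 15 genes whose order over the 30 libraries was most like that of Ttr had Spearman correlations of 0.95 to 0.98, given as a description over libraries that share a tissue and a scaling. They were led by Aqp1, Folr1, Slc4a5 and Abca4, a lipid transporter. Next came Kl, 1500015O10Rik (the secreted protein ECRG4), Wdr86, Kcnj13, Cldn2, Enpp2, Drc7, Clic6, Trpv4, Kcne2 and Igfbp2. Of these, Abca4, Wdr86 and Drc7, a subunit of the nexin-dynein complex of motile cilia, were on no list. Abca4 was at 2.56 to 4.69 against 0.304 to 0.872 scaled FPKM and Drc7 at 1.96 to 3.78 against 0.329 to 1.42.

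In libraries that the contrast had not used, most entries of the epithelial list had a positive correlation with Ttr. Among the 14 libraries between the groups, the correlation with Ttr was positive for 30 of the 30 listed entries, with a median of 0.65, while it was positive for 7841 of all 15596 entries. Slc4a5 (0.89), Folr1 (0.89), Aqp1 (0.86) and Kl (0.85) had high correlations there, and Prlr (0.37) a lower one. Among the 30 libraries that were not striatum-like, it was positive for 28 of 30, with a median of 0.43, against 8227 of 15596 entries, and Kcnj13 (-0.05) was among the exceptions. Some of these genes were near 0 there, with median levels of 0 for Slc4a5 and 0.0252 for Cldn2. The libraries of a label include those of the high-Ttr and low-Ttr groups, so their values are a description of the ranking itself. There the correlation was positive for 30 of 30 entries among the 15 libraries labelled striatum (median 0.86), the 15 labelled cortex (0.97), the 12 labelled +/+ of the KO line (0.91) and the 12 labelled KO/+ (0.86). The median over all entries in those sets was between -0.04 and -0.01.

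Transport genes that the choroid plexus shares with neurons, glia or vessels had a lower median log2 difference, 0.30, than the epithelial genes. Of 15 listed, 3 were higher in all 8 high-Ttr than in all 8 low-Ttr libraries, beside 0.801% of all entries. These were Slc31a1, a copper importer (4.55 to 6.61 against 2.03 to 3.02), Slc4a2, an anion exchanger (14.9 to 20.7 against 8.36 to 12.6), and Slc4a10, a sodium-dependent bicarbonate transporter (21.7 to 27.8 against 17.7 to 21.3). The sodium pump subunit Atp1b1, which neurons express at high levels, was at 189 to 260 against 190 to 228 scaled FPKM. Slc12a2, the sodium, potassium and chloride cotransporter, was at 13.2 to 21.1 against 9.30 to 15.7 and overlapped.

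Ligands and carriers of retinoid, thyroid hormone and growth factor signals were mostly level, apart from Igf2. Igf2, the insulin-like growth factor that choroid plexus and meninges secrete into the fluid, was at 22.4 to 38.8 (median 29.9) in the high-Ttr and 5.71 to 13.5 (median 9.92) in the low-Ttr libraries. All 8 high-Ttr libraries were above all 8 low-Ttr ones, with a log2 difference of 1.62. Its receptors Igf1r and Igf2r were at 10.1 to 12.5 against 9.04 to 11.9 and at 5.51 to 6.18 against 4.99 to 6.07. The thyroid hormone receptor Thra was at 88.2 to 118 against 96.6 to 129, and Dio2, which activates the hormone, at 4.86 to 6.82 against 4.92 to 7.26. Of 10 described entries of this list, Igf2 alone had groups that did not overlap, beside 0.801% of all entries that were higher in this way. Rbp4, whose protein binds transthyretin in blood, was at 3.09 to 4.83 against 3.83 to 6.30.

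Ependymal cilia genes were higher with Ttr, but by less than the epithelial genes. Of the 30 listed, 20 were described and 10 stayed under the limit, among them Hydin, Dnah5 and Ak7. Of the 20 entries 5 had groups that did not overlap, all higher in the high-Ttr libraries, beside 0.801% of all entries. Among these 5, Tekt1, Ccdc108, Spag16 and Dnah9 had low-Ttr means of 0.49, 0.208, 0.299 and 0.38, under the limit of 0.5. They passed the limit through their other libraries, so it favoured the counts of higher entries in this list. A log2 difference above 0 was found in 19 of the 20, against 7305 of all 15596 entries, and the median was 0.59. Foxj1, the transcription factor that turns on motile cilia genes, was at 3.34 to 4.41 scaled FPKM (median 3.84) against 1.94 to 3.33 (median 2.95). Tekt1, a filament protein of ciliary microtubules, was at 0.872 to 1.33 against 0.276 to 0.734. Ccdc108, the symbol in these tables of the gene now called Cfap65, was at 0.637 to 1.03 against 0.113 to 0.429. Spag16, of the central apparatus of the axoneme, was at 0.675 to 1.41 against 0.0966 to 0.455, and the axonemal dynein Dnah9 at 0.617 to 0.887 against 0.234 to 0.537. Mia, a secreted protein, had the largest difference on the list (1.35) and still overlapped, at 1.75 to 5.29 against 0.327 to 2.25. The slope on Ttr was 0.27 in the median of the list, against 0.75 for the epithelial list.

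RFX factors act with FOXJ1 on ciliary genes through X-boxes, of which GTTGCC is a half-site. These letters were in 12 of the 31 promoters of ependymal list genes (38.7%) and in 5 of the 33 of epithelial list genes (15.2%), against 12.5% of all promoters. The share varied widely between lists, with 4 of 8 promoters for blood cells, 4 of 12 for cortical excitatory neurons, 5 of 16 for shared transport genes and 0 of 14 for striatal projection neurons, so a high share was not particular to ciliary genes. The promoters of Tekt1 (chr11:72361833-72362132, minus strand) and Aqp1 (chr6:55336049-55336348, plus strand) are shown 5′ to 3′ as a match of either list, with GTTGCC or its reverse complement GGCAAC in capitals.
Tekt1: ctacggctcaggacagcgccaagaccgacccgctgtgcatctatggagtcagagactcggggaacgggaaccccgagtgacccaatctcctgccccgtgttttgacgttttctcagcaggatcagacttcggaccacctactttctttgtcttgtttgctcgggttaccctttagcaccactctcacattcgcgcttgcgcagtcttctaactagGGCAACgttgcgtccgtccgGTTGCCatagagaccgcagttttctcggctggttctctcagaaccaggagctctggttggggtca
Aqp1: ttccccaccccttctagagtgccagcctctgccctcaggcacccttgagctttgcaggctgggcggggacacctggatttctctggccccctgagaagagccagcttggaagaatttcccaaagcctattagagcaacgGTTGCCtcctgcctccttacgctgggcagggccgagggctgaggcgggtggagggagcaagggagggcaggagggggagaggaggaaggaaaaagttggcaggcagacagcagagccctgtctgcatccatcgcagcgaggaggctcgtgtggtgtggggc
Kcne2, Otx2 and Steap1 were the other epithelial genes with a match.

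Genes of the subventricular zone did not go with Ttr. None of 18 entries had groups without overlap, and the median log2 difference was -0.07. Dcx, doublecortin of migrating neuroblasts, was at 2.25 to 3.60 in the high-Ttr and 1.89 to 3.64 in the low-Ttr libraries. The proliferation gene Top2a was at 0.337 to 1.09 against 0.353 to 1.35, and the interneuron factor Dlx2 at 0.577 to 1.63 against 0.772 to 1.63. Mki67 and Sp8 stayed under the limit, and Tubb3 was not among the entries used.

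Stroma and vessels, which also belong to the choroid plexus, were represented by a few genes. In the list of fibroblasts and leptomeninges, Col1a2 (1.36 to 2.77 against 0.803 to 1.32) and Islr (0.932 to 1.41 against 0.373 to 0.895) were the 2 of 14 entries without overlap. Over all entries, 0.801% were higher without overlap. The median of the list was 0.21. Ptgds, the prostaglandin D synthase that meninges and choroid plexus secrete, was at 106 to 245 against 112 to 231. Dcn, of leptomeningeal fibroblasts, was at 0.865 to 1.81 against 0.889 to 1.52. Among 13 endothelial entries none was without overlap and the median was -0.03. Plvap, of fenestrated vessels such as those of the choroid plexus, was at 0.773 to 1.62 against 0.210 to 1.03, a log2 difference of 0.71, while Cldn5, of vessels with a blood-brain barrier, was at 8.22 to 16.9 against 11.9 to 15.0. Smooth muscle and pericyte genes had a median of -0.09. Haemoglobin transcripts overlapped, Hbb-bs being at 41.5 to 64.2 against 40.9 to 78.8.

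Cd74, the invariant chain of antigen presentation, was the 1 gene of the list of border macrophages that passed the limit. It was at 1.01 to 3.85 (median 1.40) against 0.391 to 0.844 (median 0.614), without overlap, beside 0.801% of all entries that were higher in this way. Its correlation with Ttr was -0.01 among the 14 libraries between the groups and -0.10 among the 30 that were not striatum-like. The other 9 members, Mrc1, Lyve1 and Pf4 among them, had a mean under the limit, and their highest values went either way. These were 0.416 in the high-Ttr against 0.337 in the low-Ttr group for Mrc1. They were 0.0938 against 0.180 for Lyve1 and 0.399 against 0.467 for Pf4. The highest Cd74, 3.85, was in the library labelled cortex Δ12/Δ12 female 2. Microglia genes had a median of -0.13, with Csf1r at 13.9 to 16.8 against 15.4 to 18.4, and none of 10 was without overlap.

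Neuronal and glial lists had median log2 differences from -0.27 to 0.43. All 14 striatal projection neuron markers had a lower mean in the high-Ttr libraries, by 0.14 to 0.33 on the log2 scale, and all 14 overlapped. Over all 15596 entries, 7305 had a log2 difference above 0. The median correlation of these markers with Ttr was -0.31 over the 30 libraries but 0.14 among the 14 between the groups. Adcy5, the main adenylyl cyclase of these neurons, was at 115 to 153 (median 136) against 132 to 210 (median 170), and Drd1 and Drd2, the dopamine receptors, at 29.0 to 46.1 against 31.5 to 55.8 and 31.9 to 49.7 against 33.1 to 62.2. In bulk RNA, fewer cells of a type and less RNA per cell cannot be told apart. Astrocyte (-0.04) and myelin (0.00) medians were near 0, with Mobp, a myelin protein, at 173 to 307 against 194 to 266. The cortical excitatory list had a median of 0.07 and Slc17a7 was at 4.96 to 59.0 against 9.04 to 29.1 scaled FPKM, so the high-Ttr group held the wider spread. Septal genes had a median of -0.27. Chat (3.15 to 4.01 against 3.52 to 5.48) and Slc5a7 (3.57 to 5.24 against 4.43 to 6.53), which mark cholinergic neurons, overlapped. Genes of thalamus and habenula had a median of 0.43 with wide ranges, such as 7.09 to 63.6 against 1.97 to 43.7 for Prkcd, and the correlation with Ttr over the 14 libraries between the groups had a median of -0.45. Hypothalamic genes had a median of 0.13, and Pmch ran from 0 to 32.9 against 0 to 12.7.

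Among the entries lower in all 8 high-Ttr libraries were Tpbgl, Phb2, Fzr1, Dennd4b, Slc35e1, Ddx23, Mmd2, Gm3534, Nras, Gpalpp1 and Akap6. The log2 differences of these were small, from -0.38 for Tpbgl to -0.11 for Akap6. Phb2, a prohibitin of the inner mitochondrial membrane, was at 15.6 to 18.0 against 18.3 to 33.5, and Tpbgl at 1.32 to 1.79 against 1.85 to 2.59. No entry without overlap was lower by 1 or more, although 114 entries had a log2 difference of -1 or less. Of the 134 entries with a difference of at least 1, 48 were without overlap, and 26 of these 48 were on the epithelial list.

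Of the 125 entries higher in all 8 high-Ttr libraries, 40 were on any list and 85 on none. The following were picked from the 85 after their values were seen, for what they are known to do. Htr2c, the serotonin receptor that choroid plexus and neurons express, was at 17.0 to 26.0 against 11.8 to 16.4 scaled FPKM. Lepr, the leptin receptor, was at 0.772 to 1.70 against 0.267 to 0.724. Krt18, a keratin of simple epithelia, was at 1.49 to 3.04 against 0.0504 to 1.26, and Rdh5, a retinol dehydrogenase, at 4.17 to 7.13 against 0.395 to 3.59. Trpm3, a cation channel that carries miR-204 in an intron, was at 17.5 to 32.9 against 7.86 to 11.4. Bmp6, a secreted signal of the TGF-beta family, was at 2.77 to 4.29 against 1.79 to 2.55. Among the 125 entries, 102 had a positive correlation with Ttr in the 14 libraries between the groups, against 7841 of all 15596 entries. In the 30 libraries that were not striatum-like, 92 of the 125 did, against 8227 of 15596. The 125 include the 28 entries of the epithelial list, so these counts are not of the 85 alone.

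The labels had not entered the ranking, and the study's own comparison of KO/+ with +/+ littermates was made on Ttr and on all genes, for mice of that line. Scaled Ttr in the libraries labelled cortex was 35.9, 248, 260, 386, 569 and 689 in +/+ and 154, 1036, 1155, 1213, 1352 and 1777 in KO/+. Thus 5 of the 6 labelled KO/+ were above all 6 labelled +/+, and the mean log2 level was higher by 1.76. The exact two-sided permutation test gave p = 0.0476, and 0.143 after adjustment over the 3 comparisons made (n = 6 and 6). In the libraries labelled striatum, Ttr was 298.5 to 1421 (median 738) in +/+ and 283 to 1185 (median 836) in KO/+, a log2 difference of 0.08 (exact permutation test p = 0.844, adjusted p = 0.844, n = 6 and 6). Labelled striatum (283 to 1421, median 780.1) and labelled cortex (35.9 to 1777, median 629), 12 libraries each, had a log2 difference of 0.59, which was within the spread (permutation test p = 0.271, adjusted p = 0.407). This test took the 12 and the 12 as independent and did not use the pairing by labelled mouse. In the Δ12 line, the 3 libraries labelled cortex Δ12/Δ12 female were at 1320, 1495 and 1669, and the 3 labelled striatum Δ12/Δ12 female at 26.1, 867 and 931. These trios were not tested.

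**Figure D4:**
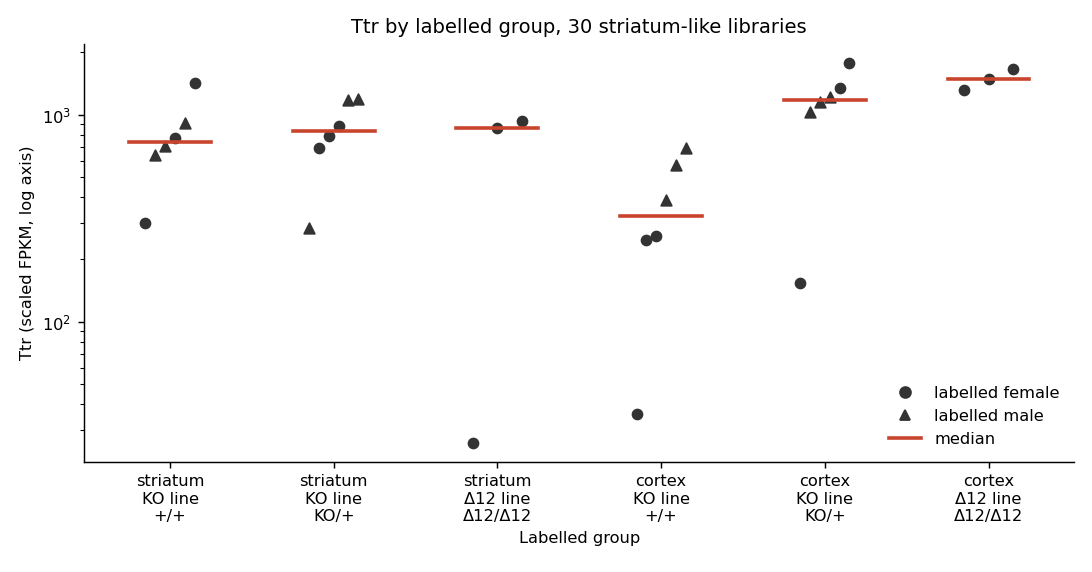
Scaled Ttr (log axis) in the 30 striatum-like libraries by labelled group, each point 1 library, circles for labelled females and triangles for labelled males, with the group median as a bar. Within the KO line, 5 of 6 libraries labelled cortex KO/+ lie above all 6 labelled cortex +/+, and the ranges of the 2 groups labelled striatum overlap.

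The epithelial genes followed Ttr in these comparisons. The libraries were among the 30 whose correlations with Ttr are described above, so this is no separate support. Across all genes, limma on log2(scaled FPKM + 0.5), adjusted for the labelled sex and with Benjamini-Hochberg correction, called 1 of 15497 entries higher (0.00645%) and 19 lower (0.123%) in the libraries labelled cortex KO/+. None of 30 epithelial list entries, Ttr included, was among them, although their median log2 difference was 1.01. Ttr differed by 1.76 (SE 0.64, limma adjusted p = 0.24), Kl by 1.20 (SE 0.46, adjusted p = 0.265), Aqp1 by 1.11 and Enpp2 by 0.89. In the libraries labelled striatum, limma called 607 entries higher (3.92%) and 653 lower (4.22%) in KO/+, and none of the 30 epithelial entries was among them, with a median of -0.04. That fit called genes of other lists: 12 of 14 striatal projection neuron genes higher, and 8 of 9 myelin, 7 of 9 thalamic and 6 of 6 hypothalamic genes lower. Markers of neighbouring tissue thus moved with the labelled genotype there, and their part in that comparison was not tested. Between labelled striatum and labelled cortex of the KO line, with the labelled mouse as a block, limma called 0 of 15583 entries (0.0%), with 984 at an unadjusted p under 0.05, and Ttr had an adjusted p of 0.856. The difference between the labelled tissues in the effect of the labelled genotype was 1.68 for Ttr (SE 0.83, limma adjusted p = 0.461), and limma called 0 entries for it, with 1741 at an unadjusted p under 0.05. This last fit took the libraries as independent and did not use the pairing by labelled mouse. Htt did not separate the labelled genotypes. It was at 17.5, 16.6 and 16.7 scaled FPKM in cortex KO/+ female 3, female 1 and male 3, and at 12.1, 14.0 and 13.6 in female 2, male 1 and male 2. Libraries labelled cortex +/+ of the KO line ran from 14.7 to 17.9. The libraries of a group were labelled as separate mice. Since transcripts went against labels of tissue and sex in part, and Htt did not follow the labelled genotype throughout, the p-values measure the spread between libraries as labelled.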

How the data were processed

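For each library the authors gave FPKM by gene entry with interval bounds, laid out as Cufflinks does and with GRCm38 coordinates; the deposited values were FPKM, not counts. Per the submitters' processing notes, bcl2fastq 2.20, Trimmomatic 0.30, TopHat2 2.0.14, SAMtools 1.3, HTSeq 0.6.1p1 and GRCm38.p4 were used, and the program that made the FPKM is not given in the sources used here. Of 47597 entries, 23 that were not marked OK in every library were left out.

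The FPKM were divided by a median-of-ratios factor, computed apart in the 30 striatum-like and in the other 30 libraries, since the 10 highest entries held 28.3% to 86.6% of the summed FPKM of a striatum-like library. A pseudocount of 0.5 was added, and entries with a mean of at least 0.5 were kept. Differences are of mean log2 values. Fits were made with limma 3.58.1 in R 4.3.3 (adjusted p under 0.05), and permutation tests with scipy 1.17.1, exact for 6 against 6 and with 100000 resamples for 12 against 12. Both scripts were tested on simulated data. Depth was estimated from interval bounds of single-transcript genes, and covers counting error only.

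The members, the gene lists and the tests were chosen with earlier results of these data known. Genes named were the members of 18 lists, Htt, the 15 largest differences in each direction among entries without overlap, and the 15 entries most like Ttr; other names are said to have been picked later. The listed symbol Cfap65 was matched to Ccdc108 through RefSeq synonyms. Promoters are from RefSeq. Alternatives were another scaling, pseudocount, filter, group size, ranking or set of libraries, a replicate block, Ttr as a covariate, and each library left out. The library labelled striatum KO/+ female 3 has a title that names the Δ12 line and was grouped by its genotype label. Whether same-numbered libraries of a labelled tissue are paired across genotypes was checked: their deviations had correlations of -0.12 to 0.09, so these fits had no block. The limma comparison of labelled tissues had the labelled mouse as a block, from the labels. The permutation test of Ttr between them had none, nor had the limma fit of the genotype effect by labelled tissue. Deviations of a labelled mouse's 2 libraries had correlations of -0.12 to 0.16. A few results are not reported here.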

Additional observations from a re-analysis of the deposited data

Results flagged for a closer look

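In 38 sets of values checked (Ttr in the 4 labelled groups of 6, and the mean level of each list with at least 3 entries in either group of 8), 1 value lay far from the others of its set, where chance alone flags about 1 in 20. It was the mean log2 level of the list of subventricular zone and neuroblasts in the library labelled striatum KO/+ male 3, 2.715 in log2(scaled FPKM + 0.5), the highest of the low-Ttr group. It rested on the short second entry of Dlx6os1, which was at 350.2 scaled FPKM there and listed at 0 in the other 29 striatum-like libraries, while the long entry of Dlx6os1 was at 5.74.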

How the results depend on the processing

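No tested result changed sign past its threshold; among the described medians, the thalamic and the fibroblast one changed sign as given below. The 28 epithelial entries without overlap became 27 to 29 under another scaling, pseudocount, filter or ranking by Folr1 and Kl, 24 in the KO line alone and 1 for 15 against 15 libraries. The 125 entries higher with Ttr became 358 for 5 against 5 libraries, 1 for 15 against 15 and 69 in the KO line alone, and the 12 lower entries 3 with FPKM as deposited, 173 for 5 against 5 and 0 for 15 against 15. Leaving out each library gave 126 to 161 higher and 12 to 64 lower; fewer libraries make overlap less likely. The lower count was 64 without the library labelled cortex KO-line +/+ female 2, and 26, 24, 21 and 20 without cortex Δ12/Δ12 female 1, striatum KO/+ male 2, cortex Δ12/Δ12 female 2 and cortex KO/+ male 1. Without the 2 lowest libraries, an alternative chosen after seeing the data, it was 73.

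The epithelial median was 2.40 with a pseudocount of 0.1, 1.15 for 15 against 15 and 1.49 in the KO line, and the ependymal median 0.96 and 0.38 in the first and second of these. The shared transport median was 0.42 for 5 against 5, 0.15 for 15 against 15 and 0.14 in the KO line, where the cortical median was 0.59 and the thalamic -0.26. The fibroblast median was -0.00238 for 15 against 15, the mural -0.16 with FPKM as deposited, and that of border macrophages 0.078 with no filter. The cause was not tested.

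In limma, the KO/+ comparison in labelled striatum called 348 entries with FPKM as deposited (27 higher, 321 lower, against 607 and 653) and 710 to 1371 with a library left out. With Ttr as a covariate it called 1239 there, 1 of the 29 epithelial entries tested among them. In labelled cortex it called 147 with FPKM as deposited, 0 with Ttr as a covariate (2003 at an unadjusted p under 0.05) and 5 to 33 with a library left out. With a replicate block the calls were 647 and 2; the numbers did not pair the libraries. The difference between tissues, also added after seeing the data, gave 1 call with FPKM as deposited and 0 to 9 with a library left out.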
